A study of Mus musculus with 9 samples.

Results

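Mouse chromosome 10 carried 643 genes at a mean of 0.5 CPM or more over 9 libraries, where CPM are the reads of a gene scaled to the size of its library, and as a group these genes stood higher in G1C7 and in G2C9 than in Gcontrol. They were taken by that level and by their chromosome alone, out of 2622 genes that the files place on chromosome 10, of which 1438 had any read. Over all chromosomes 13053 of 55401 genes reached the same level. The chromosome itself was picked because its genes stood higher in both derivatives, so every level against Gcontrol given here is a description, and no p-value is printed for it. Calls of single genes against Gcontrol come from the same contrasts. They are likewise a description, also where they were kept or lost without single libraries. Just inside the limit lay Fgf22 at 0.504, Lingo3 at 0.509 and 1700006J14Rik at 0.516 CPM. Just outside lay Samd5 at 0.487, Gm10752 at 0.479 and 4933406P04Rik at 0.471 CPM.

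G1C7 and G2C9 are derivatives of NP53 with a TIM-3 knockout genotype, and Gcontrol is the NP53 line with a WT genotype, each with 3 libraries of poly(A) RNA. NP53 is a mouse cell line of diffuse midline glioma (DMG), a childhood brainstem tumour also called DIPG. All 3 groups were grown in DMEM with fetal bovine serum and antibiotics. The series sets the knockout derivatives against the parental line, and TIM-3, encoded by Havcr2 on chromosome 11, is a receptor that restrains T cells. Each knockout name stands for 1 derivative line, so a difference from Gcontrol may belong to the line or to the knockout, and these cannot be told apart. The labels do not say whether the 3 libraries of a group came from separate cultures, so a p-value measures the spread between these libraries, which may be technical.

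A cell line in culture can gain or lose whole chromosomes or parts of them, and lines derived from a single parent can differ in that respect. The level of an mRNA depends on how many copies of its gene a cell holds, on the regulation of its promoter and on the stability of the transcript. RNA counts measure the end of that chain and do not separate these steps. Chromosome 10 of the mouse holds genes of quite different roles, among them the growth factor Igf1, the stem cell factor Kitl, the cell cycle kinases Cdk1, Cdk2 and Cdk4, the p53 ligase Mdm2 and the chromatin enzyme Hdac2.

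Promoter sequences of 4 members are shown because the results turn on genes like these. Hdac2 was higher in both derivatives, Lrp11 and Srgap1 were low in both, and Soga3 had no read in G1C7 but reads in G2C9 and in Gcontrol. Each run is 300 bases long, from 250 bases before to 50 bases after the start of the gene in RefSeq, 5′ to 3′ on the strand of the gene, from RefSeq on GRCm38.p6, with every CG dinucleotide in capitals. The windows lie at chr10:36974294-36974593 on the plus strand for Hdac2, at chr10:7589567-7589866 on the plus strand for Lrp11, at chr10:122047266-122047565 on the minus strand for Srgap1 and at chr10:29143746-29144045 on the plus strand for Soga3. The genes themselves span, on GRCm38 as in the files, chr10:36974544-37001889 for Hdac2, chr10:7589800-7625483 for Lrp11, chr10:121780991-122047315 for Srgap1 and chr10:29143839-29199630 for Soga3, so the RefSeq starts of Lrp11 and Soga3 differ from those of the files.
Hdac2: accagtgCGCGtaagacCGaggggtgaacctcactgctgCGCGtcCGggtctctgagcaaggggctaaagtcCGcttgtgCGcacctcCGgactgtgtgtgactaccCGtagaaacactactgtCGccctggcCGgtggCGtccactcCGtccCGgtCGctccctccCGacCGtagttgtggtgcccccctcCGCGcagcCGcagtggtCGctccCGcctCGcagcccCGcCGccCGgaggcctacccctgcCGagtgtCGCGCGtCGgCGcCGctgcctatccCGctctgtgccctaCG
Lrp11: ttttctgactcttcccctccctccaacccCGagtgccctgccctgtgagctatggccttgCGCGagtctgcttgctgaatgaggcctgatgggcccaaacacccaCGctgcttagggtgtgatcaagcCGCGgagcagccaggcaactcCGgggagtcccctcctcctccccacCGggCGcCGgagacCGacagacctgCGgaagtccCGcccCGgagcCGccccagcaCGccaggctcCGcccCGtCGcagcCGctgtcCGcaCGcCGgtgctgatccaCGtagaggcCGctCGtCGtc
Srgap1: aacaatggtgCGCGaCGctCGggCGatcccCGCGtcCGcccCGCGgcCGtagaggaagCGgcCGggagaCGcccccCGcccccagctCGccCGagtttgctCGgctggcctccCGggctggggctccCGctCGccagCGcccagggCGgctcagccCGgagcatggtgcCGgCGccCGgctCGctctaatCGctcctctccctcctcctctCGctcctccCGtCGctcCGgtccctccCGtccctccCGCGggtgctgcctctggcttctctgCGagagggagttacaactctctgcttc
Soga3: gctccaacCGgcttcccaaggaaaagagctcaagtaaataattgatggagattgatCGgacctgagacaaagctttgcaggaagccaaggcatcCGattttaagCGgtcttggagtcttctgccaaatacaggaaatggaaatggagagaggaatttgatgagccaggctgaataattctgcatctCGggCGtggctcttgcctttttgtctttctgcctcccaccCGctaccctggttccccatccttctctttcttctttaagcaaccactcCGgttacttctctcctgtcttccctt
The Hdac2 window held 36 CG and 69.7% G or C. The Lrp11 window held 27 CG and 68.7% G or C, the Srgap1 window 37 CG and 73.3%, and the Soga3 window 8 CG and 48.3%. GGGCGG, searched on both strands, was present in the Hdac2, Lrp11 and Srgap1 windows and not in that of Soga3, and TATAAA was in none of the 4. So a low gene could have a window as rich in CG as that of a gene that was higher in both derivatives. RefSeq windows were matched by symbol for 510 of the 643 members. GGGCGG stood in 67.6% of these and in 35.7% of all 32851 windows of the table, and TATAAA in 7.45% and 13.6%. The median number of CG was 23 in the members and 7 over the whole table, which also holds genes that these cells do not express.

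Before the values, some facts of the libraries bear on them. The files held between 50110129 and 56035382 reads in genes per library. Both G1C7 replicate 2 and G2C9 replicate 3 differed from the remaining libraries of G1C7 and G2C9: Hp, the haptoglobin gene of chromosome 8, had 205.0 and 492.7 CPM there, against 4.05 and 4.08 CPM in the other G1C7 libraries, 20.3 and 21.5 CPM in the other G2C9 libraries and 2.99 to 3.86 CPM in Gcontrol. Havcr2 had 55, 6 and 66 reads in G1C7, 39, 30 and 28 reads in G2C9 and 74, 58 and 60 reads in Gcontrol. The site of the edit is not given in the sources used here, so reads over the whole gene do not check the genotype. Of 8 markers of neural stem and glioma cells, Vim, Pdgfra, Nes and Sox2 were present, Olig1 and Olig2 were at 0 in every library, and Sox10 and Gfap were at most 0.0396 and 0.333 CPM. Their summed level was 2786.3 to 2841.6 CPM in G1C7, 2498.3 to 2602.9 CPM in G2C9 and 2223.2 to 2277.9 CPM in Gcontrol. Most of that sum was Vim, and single markers differed in direction: Sox2 had 21.3 to 58.6 CPM in G1C7 and 23.2 to 40.8 CPM in G2C9, against 69.4 to 69.8 CPM in Gcontrol, and Nes had 149.2 to 158.2 CPM in G1C7 and 90.1 to 101.3 CPM in G2C9, against 108.0 to 123.1 CPM in Gcontrol. The 3 neuron markers summed to 12.7 to 23.7 CPM in G1C7 and 8.18 to 10.6 CPM in G2C9, against 18.7 to 19.5 CPM in Gcontrol, nearly all of it Tubb3, with Snap25 at 0 in every library. Of 5 immune markers, Cd68 reached 2.10 to 4.50 CPM over all libraries and the other 4 were at or near 0. The part of these libraries and levels in the values of chromosome 10 was not tested, and values without the 2 libraries are given beside the counts.

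The members took 5.98%, 6.16% and 5.98% of all reads in genes in the G1C7 libraries and 6.03%, 6.04% and 6.27% in the G2C9 libraries, against 5.10%, 5.08% and 5.10% in the Gcontrol libraries. Every G1C7 and G2C9 library therefore stood above every Gcontrol library. Changes are given as log2 fold changes from an edgeR quasi-likelihood fit over all libraries, and levels of the chromosome are given after taking off the median over all 15659 genes tested, which was 0.02 for G1C7 and 0.01 for G2C9. On that scale the median member lay 0.28 above all genes in G1C7 (interquartile range 0.06 to 0.50) and 0.26 above in G2C9 (0.07 to 0.47). These medians correspond to 1.22-fold in G1C7 and 1.2-fold in G2C9. In single libraries, measured against the mean of Gcontrol, the median member was at 0.26, 0.29 and 0.27 in G1C7, at 0.24, 0.27 and 0.30 in G2C9 and at 0.00, -0.01 and 0.01 in Gcontrol. The shift was small for a single gene, and 519 members (80.7%) lay above the median of all genes in G1C7 and 517 (80.4%) in G2C9. On chromosome 17 these shares were 82.6% and 66.4%. Above that median in both derivatives lay 72.3% of members, against 38.9% of genes of other chromosomes at the same level. Without G1C7 replicate 2 and G2C9 replicate 3 the median in G1C7 was 0.30.

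The shift ran along the whole chromosome. With genes placed by their midpoint in 15 Mb windows, the median lay above that of all genes in each of the 9 windows in both derivatives. From 0 to 15 Mb the 46 genes had medians of 0.32 in G1C7 and 0.37 in G2C9. The 43 genes from 15 to 30 Mb had 0.32 and 0.30, and the 66 genes from 30 to 45 Mb had 0.21 and 0.25. The highest window was that from 45 to 60 Mb, where 35 genes had medians of 0.41 in G1C7 and 0.44 in G2C9, or 1.33-fold and 1.36-fold. In G2C9 the order changed without replicate 3, when the window from 0 to 15 Mb had 0.447 and that from 45 to 60 Mb 0.439, and without both libraries that stood apart, with 0.447 and 0.44. From 60 to 75 Mb the 57 genes had 0.31 and 0.25. The most gene-rich window, from 75 to 90 Mb, held 210 genes with medians of 0.22 in G1C7 and 0.20 in G2C9. The last windows had medians of 0.36 and 0.34 over 40 genes from 90 to 105 Mb, 0.24 and 0.23 over 46 genes from 105 to 120 Mb, and 0.34 and 0.33 over 100 genes from 120 Mb to the end. The share of genes above the median of all genes ranged from 73.9% to 89.0% in G1C7 and from 73.9% to 91.4% in G2C9, so no window was without genes below it.

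**Figure D1:**
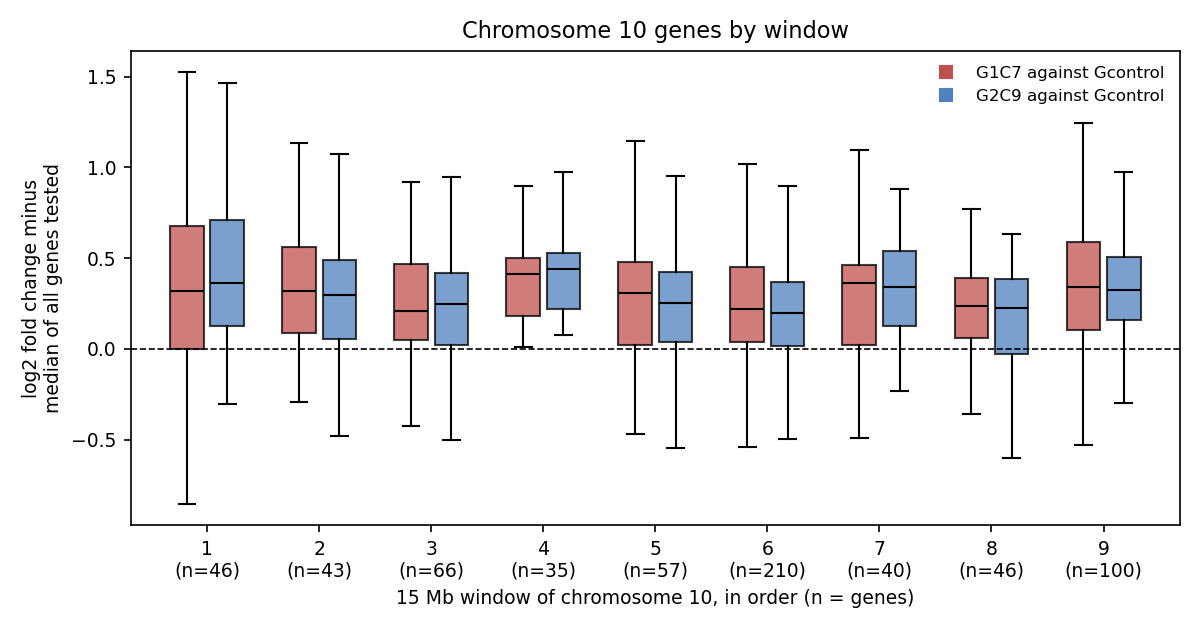
Log2 fold change of chromosome 10 genes against Gcontrol, minus the median of all genes tested (vertical axis), for the 9 windows of 15 Mb in order along the chromosome (horizontal axis), G1C7 left and G2C9 right. Boxes span the quartiles with the median as a line and whiskers reach the last gene within 1.5 box lengths; genes beyond are not drawn. Every median lies above 0, the highest in window 4 at 0.41 in G1C7 and 0.44 in G2C9.

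Each library of both derivatives showed the shift in every window. The lowest value among the G1C7 libraries was 0.12, in replicate 2 from 90 to 105 Mb, where replicates 1 and 3 had 0.35 and 0.36. The lowest among the G2C9 libraries was 0.09, in replicate 3 from 105 to 120 Mb, where replicates 1 and 2 had 0.24 and 0.27. Both low values thus belong to the libraries that stood apart. Gcontrol libraries lay between -0.04 and 0.05 in all windows. The window from 90 to 105 Mb also held 0.612% of all reads of G2C9 replicate 3, against 0.464% and 0.476% in the other G2C9 libraries. Its most abundant gene was Dcn, which encodes the matrix proteoglycan decorin, at 902.4, 925.2 and 2573.0 CPM in G2C9, 296.4, 873.6 and 311.7 CPM in G1C7 and 784.7, 835.8 and 744.0 CPM in Gcontrol. In each derivative Dcn was highest in the library that stood apart. In G1C7 that library, at 873.6 CPM, was close to Gcontrol, and replicates 1 and 3 lay below every Gcontrol library. Dcn was not called in either derivative.

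**Figure D2:**
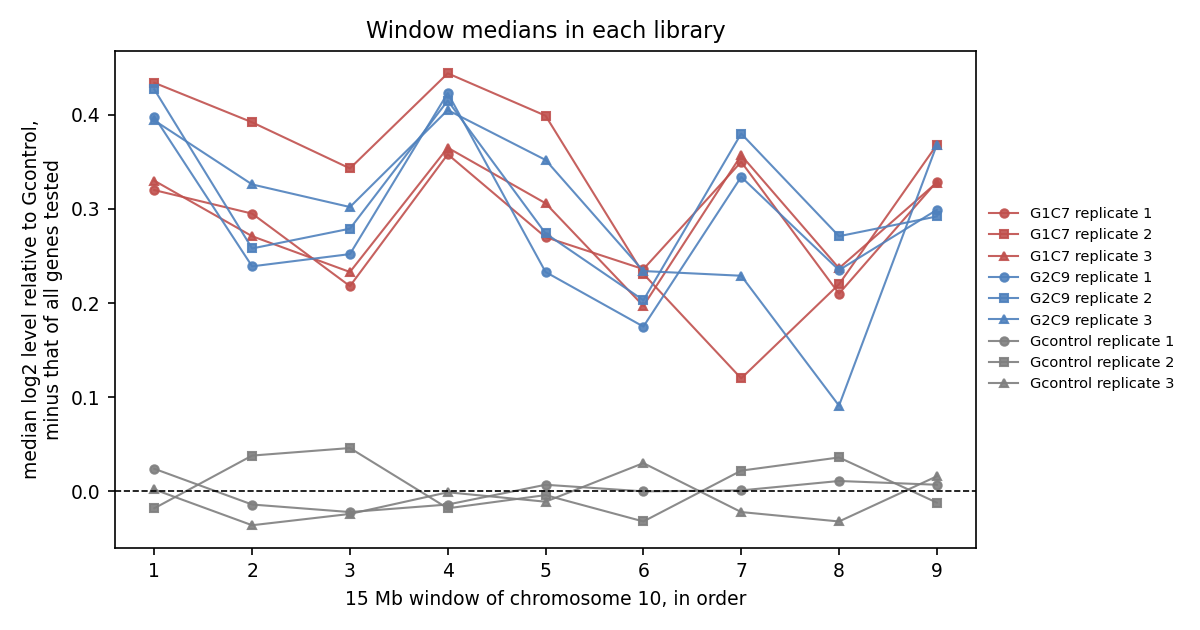
Median log2 level of the genes in each window relative to the Gcontrol mean, minus the same median over all genes tested (vertical axis), in each of 9 libraries for the 9 windows in order along the chromosome (horizontal axis). Lines of G1C7 and G2C9 libraries lie above 0 in every window, between 0.09 and 0.44, and lines of Gcontrol libraries between -0.04 and 0.05.

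Other chromosomes also had medians above 0. Among 20 chromosomes with at least 30 genes at the same level, the median of chromosome 10 ranked first in G2C9 and after that of chromosome 17, at 0.41, in G1C7. In G2C9 chromosome 17 had 0.12. Chromosome 13 followed at 0.24 in G1C7 and 0.23 in G2C9, and chromosome 8 had 0.17 and 0.15. Medians of the 15 Mb windows of chromosome 10 ran from 0.21 to 0.41 in G1C7 and from 0.20 to 0.44 in G2C9. Those of chromosome 13 ran from -0.37 to 0.47 in G1C7 and from -0.43 to 0.50 in G2C9, and those of chromosome 8 from -0.16 to 0.47 and from -0.24 to 0.37. On chromosome 17 they ran from 0.15 to 0.55 in G1C7 and from 0.08 to 0.29 in G2C9. Chromosomes 8 and 13 thus had windows on both sides of 0, while on chromosomes 7, 9, 10, 17 and 18 no window with at least 10 genes lay below it in either derivative. Of 182 windows of 15 Mb with at least 10 genes over the genome, 17 lay above 0.2 in both derivatives, and 8 of these were on chromosome 10, 3 each on chromosomes 8 and 13 and 1 each on chromosomes 7, 9 and 17. The comparisons of G1C7 and G2C9 share the Gcontrol libraries, so their likeness is not independent. No test of the difference between chromosomes was made, since the chromosome was chosen on these values.

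**Figure D3:**
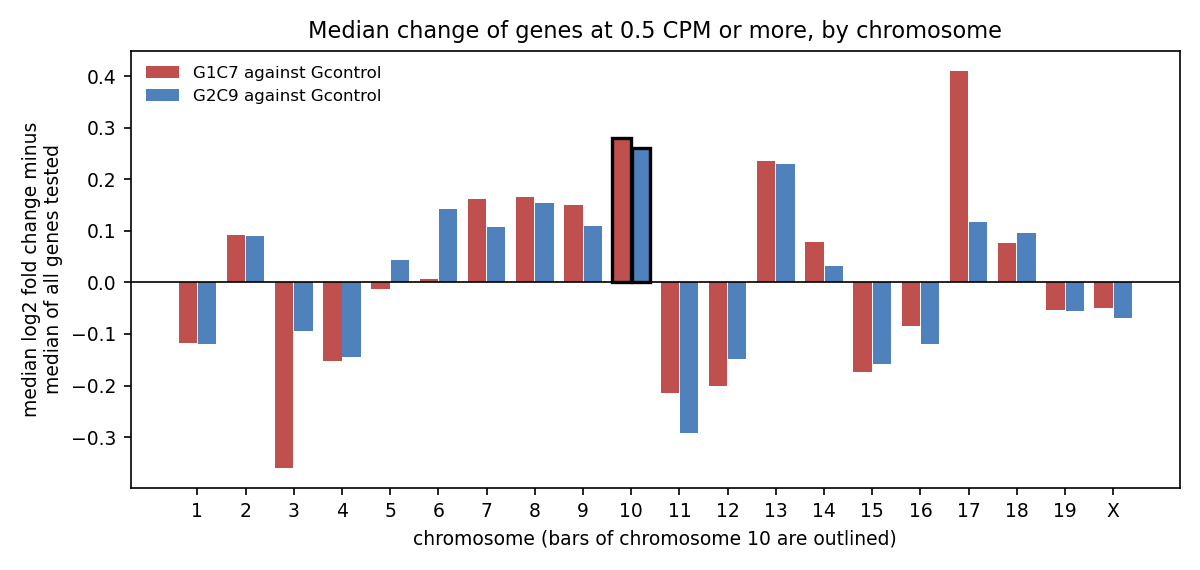
Median log2 fold change against Gcontrol of genes at a mean of 0.5 CPM or more, minus the median of all genes tested (vertical axis), by chromosome (horizontal axis), G1C7 left and G2C9 right. Chromosome 10, outlined, stands at 0.28 and 0.26, with chromosome 17 higher in G1C7 at 0.41.

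Among the members, the size of the shift varied with the level and the exon length of the gene. Genes of other chromosomes were not split in these ways, so whether they vary likewise was not tested. Among the 161 members with the lowest mean, from 0.504 to 5.27 CPM, the median was 0.16 in G1C7 and 0.15 in G2C9, with interquartile ranges from -0.29 to 0.75 and from -0.14 to 0.64. In the next 161, 160 and 161 members by rising level it was 0.31, 0.31 and 0.26 in G1C7 and 0.28, 0.27 and 0.27 in G2C9, with narrower ranges. The share of genes above the median of all genes was 62.7% in the lowest 161 and 88.8% in the highest 161 in G1C7, and 64.0% and 91.3% in G2C9. The 593 protein-coding members had medians of 0.29 and 0.26, and the 50 members of other types, which include long noncoding RNAs, had 0.14 and 0.21. Genes on the plus and minus strands had 0.27 and 0.29 in G1C7 and 0.25 and 0.26 in G2C9. By total exon length the 161 shortest genes, up to 2789 bases, had 0.20 in both derivatives and the 161 longest, from 6627 bases, had 0.33 and 0.37. Members whose promoter window held under 10 CG, 83 genes, had medians of 0.31 and 0.31, and the 427 with 10 or more had 0.28 and 0.26. The share above the median of all genes went the other way. It was 68.7% under 10 CG and 84.3% with 10 or more in G1C7, and 77.1% and 81.7% in G2C9.

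A single gene was called where its p, adjusted over all genes by the Benjamini-Hochberg method, lay under 0.05. In G1C7 152 members were called higher and 15 lower than in Gcontrol, with 8.77% and 8.73% of all genes tested called in these directions. In G2C9 128 were called higher and 15 lower, with 6.25% and 7.22% of all genes. Called in both derivatives were 111 higher and 8 lower, with 4.56% and 4.59% of all genes, and nothing is read from these shares because the chromosome was chosen on the same contrasts. Most called changes were small: 95 of the 111 lay below 1 on the log2 scale in both derivatives, and their medians were 0.54 in G1C7 and 0.51 in G2C9. Libraries were higher without overlap with Gcontrol for 282 members in G1C7 and 317 in G2C9, and lower without overlap for 34 and 37. Over all genes tested, 21.0% in G1C7 and 20.4% in G2C9 were higher without overlap, and 22.1% and 22.9% lower. Without Gcontrol replicate 1, 2 or 3 in turn the higher calls numbered 57, 69 and 62 in G1C7 and 48, 56 and 52 in G2C9. Without G2C9 replicate 1 or 2 those in G2C9 numbered 71 and 70, and without G1C7 replicate 2 they numbered 236. Without both libraries that stood apart, 380 members were called higher and 65 lower in G1C7, and 376 and 69 in G2C9, with 26.4% and 27.9% of all genes called in G1C7 and 25.4% and 27.6% in G2C9.

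The abundant genes of each window show how the shift looks in single genes. Hdac2, a histone deacetylase, had 260.9, 234.9 and 256.7 CPM in G1C7 and 241.5, 255.4 and 240.8 CPM in G2C9, against 187.7, 189.2 and 179.9 CPM in Gcontrol. All libraries of both derivatives were above all of Gcontrol, with log2 fold changes of 0.44 ± 0.08 in G1C7 and 0.41 ± 0.08 in G2C9 (SE). Both changes lay above the medians of its window, 0.21 and 0.25, and near the upper quartiles of 0.47 and 0.42. Hdac2 thus moved more than the typical gene there. The call in G2C9 was lost without G2C9 replicate 2, Gcontrol replicate 1 or Gcontrol replicate 3, with a change between 0.39 and 0.43 over the libraries left out. Cd164, a sialomucin that also sits in the lysosome, had 324.5 ± 8.59 CPM in G1C7 and 350.7 ± 9.70 CPM in G2C9, against 250.7 ± 16.7 CPM in Gcontrol (SD, n = 3), and log2 fold changes of 0.37 ± 0.08 and 0.48 ± 0.08. Its call in G1C7 was lost without G1C7 replicate 1 or 3 or Gcontrol replicate 1 or 3, with a change between 0.32 and 0.42. Other abundant genes followed the chromosome without a call. Psap, which encodes the precursor of the lysosomal saposins, had 1262.0, 1427.4 and 1299.1 CPM in G1C7 and 1214.2, 1229.9 and 1586.7 CPM in G2C9, against 1045.0, 1041.1 and 1029.7 CPM in Gcontrol. In both derivatives every library of Psap lay above every Gcontrol library, and the changes were 0.36 ± 0.12 in G1C7 and 0.37 ± 0.12 in G2C9. Gja1, the gap junction protein connexin 43, had changes of 0.19 ± 0.08 in G1C7 and 0.21 ± 0.08 in G2C9, again without overlap with Gcontrol.

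Several of the most abundant genes overlapped with Gcontrol or had changes near 0. Eef2, a translation elongation factor and the most abundant member, had 3421.4, 3282.1 and 3372.4 CPM in G1C7 and 3713.1, 3796.2 and 3102.0 CPM in G2C9, against 3181.6, 3029.8 and 3321.2 CPM in Gcontrol. In G2C9 only replicate 3, a library that stood apart, overlapped with Gcontrol, and in G1C7 only replicate 2, the other such library, did. Mthfd1l, a mitochondrial enzyme of folate metabolism, had log2 fold changes of 0.00 ± 0.16 in G1C7 and 0.02 ± 0.16 in G2C9. Slc25a3, the mitochondrial phosphate carrier, had 0.04 ± 0.13 and 0.07 ± 0.13, and Nap1l1, a histone chaperone, had -0.01 ± 0.18 and 0.07 ± 0.18. In Ddx21, a nucleolar RNA helicase, the libraries that stood apart had 230.4 CPM in G1C7 and 389.6 CPM in G2C9, the other libraries of those groups had 619.9 to 623.6 CPM and 688.5 to 693.1 CPM, and Gcontrol had 543.0 to 557.7 CPM. Its low libraries were thus the 2 that stood apart.

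A few genes stood far above the chromosome. Igf1, which encodes insulin-like growth factor 1, had 2.19, 5.46 and 1.90 CPM in G1C7 and 3.09, 3.18 and 3.09 CPM in G2C9, against 0.518, 0.554 and 0.459 CPM in Gcontrol. Every library of the derivatives exceeded every Gcontrol library, with log2 fold changes of 2.64 ± 0.41 in G1C7 and 2.61 ± 0.41 in G2C9, and 2.00 and 2.62 without the libraries that stood apart. Plagl1, an imprinted zinc finger transcription factor, had 11.6, 17.4 and 11.1 CPM in G1C7 and 12.4, 12.5 and 16.7 CPM in G2C9, against 2.96, 3.68 and 3.32 CPM in Gcontrol. Both derivatives were again apart from Gcontrol, with changes of 2.01 ± 0.22 and 2.07 ± 0.22. Fam19a2, which encodes a small secreted protein of the brain, changed by 2.72 ± 0.31 in G1C7 and 2.35 ± 0.30 in G2C9. Esr1, the estrogen receptor alpha gene, had 4.53 ± 1.06 CPM in G1C7 and 4.34 ± 0.717 CPM in G2C9, against 1.56 ± 0.308 CPM in Gcontrol (SD, n = 3). Glt8d2, a glycosyltransferase family member, changed by 1.59 ± 0.22 and 1.86 ± 0.22. Socs2, an inhibitor of cytokine and growth hormone signalling, had 17.8 ± 1.31 CPM in G1C7 and 19.6 ± 2.53 CPM in G2C9, against 8.22 ± 0.427 CPM in Gcontrol. Arhgap18 changed by 1.15 ± 0.13 and 1.09 ± 0.13. Without any 1 of the 9 libraries, each of these 7 genes remained called in both derivatives. Tmem200a, picked by the same rule, changed by 1.395 in G1C7 and 1.247 in G2C9 and was less stable. Its call in G1C7 was lost without any 1 Gcontrol replicate. That in G2C9 was lost without G2C9 replicate 1 or 2 or any 1 Gcontrol replicate. In all, 11 members lay 1 or more above the median of their window in both derivatives, and 12 lay 1 or more below it in both. Within 0.25 of it in both lay 283 (44.0%).

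The members were also read by function, in lists written for this chromosome, and the median of each of the 8 lists lay above 0 in both derivatives. Over all members 23.6% were called higher and 2.33% lower in G1C7, and 19.9% and 2.33% in G2C9, beside 8.77% and 8.73%, and 6.25% and 7.22%, of all genes tested. No list was tested against the chromosome. Of 17 growth factors, receptors and kinase signalling genes, 7 were called higher and 0 lower in G1C7, and 6 higher and 1 lower in G2C9, with medians of 0.61 and 0.36. Beside Igf1 and Socs2 these included Ptprk, a receptor tyrosine phosphatase, at 282.9 ± 22.0 CPM in G1C7 and 260.8 ± 6.79 CPM in G2C9, against 147.6 ± 5.56 CPM in Gcontrol. The 1 lower gene was Ptprb. Of 28 transcription factors and chromatin genes, 8 were called higher and 0 lower in G1C7 and 6 higher and 1 lower in G2C9, with medians of 0.37 and 0.26. Plagl1 was among those called higher in both, and Prdm1, a repressor known from lymphocyte and germ cell development, was the lower gene in G2C9. Ddit3, the stress-induced factor CHOP, had 26.8, 86.0 and 24.4 CPM in G1C7 and 26.7, 26.8 and 38.2 CPM in G2C9, against 15.2, 15.5 and 15.5 CPM in Gcontrol. Its highest library in each derivative was the one that stood apart, and the change in G1C7 was 1.57 ± 0.45 with it and 0.74 without both such libraries. The call of Ddit3 in G1C7 was lost without G2C9 replicate 1 or 2 or any 1 Gcontrol replicate.

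Of 21 cell cycle and p53 genes, 3 were called higher and 0 lower in each derivative, with medians of 0.32 in G1C7 and 0.30 in G2C9. Btg1, an antiproliferative factor, had 248.2 ± 4.15 CPM in G1C7 and 258.7 ± 28.4 CPM in G2C9, against 167.7 ± 10.1 CPM in Gcontrol, and changes of 0.57 ± 0.10 and 0.63 ± 0.10. Apaf1, the scaffold of the apoptosome, changed by 0.53 ± 0.12 and 0.71 ± 0.12, and its call in G1C7 was lost without any 1 Gcontrol replicate, with 0.42 to 0.60 over the libraries left out. Cdk4 and Mdm2, genes often amplified together in human tumours, were not called, with 0.33 ± 0.22 and 0.09 ± 0.07 in G1C7 and 0.47 ± 0.22 and 0.25 ± 0.07 in G2C9. Of 9 neural and glial genes that reached the level, out of 18 in the list, 2 were called higher in each derivative and 1 lower in G1C7. Ank3, which encodes the axonal scaffold ankyrin G, had 102.6, 84.7 and 98.5 CPM in G1C7 and 104.5, 92.9 and 82.4 CPM in G2C9, against 45.9, 40.7 and 48.1 CPM in Gcontrol, with all libraries of the derivatives above all of Gcontrol.

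Genes of metabolism and of translation had the lowest medians of the 8 lists. Of 18 metabolic and mitochondrial genes, 2 were called higher and 0 lower in each derivative, with medians of 0.18 in G1C7 and 0.21 in G2C9. One of them was Gpx4, the lipid peroxide reductase that restrains ferroptosis, with 312.4 ± 34.0 CPM in G1C7 and 306.3 ± 21.6 CPM in G2C9, against 203.5 ± 6.25 CPM in Gcontrol. Of 14 translation and folding genes, 5 were called higher in G1C7 and 2 in G2C9, none lower, with medians of 0.14 and 0.15. Of 12 immune signalling genes, 1 was called higher and 0 lower in each derivative, with medians of 0.35 and 0.31. Of 17 matrix and adhesion genes, 1 was called higher in each, and 1 lower in G1C7 and 3 in G2C9, with medians of 0.40 and 0.27. Cd24a, a surface glycoprotein of that list, had 0.711, 7.76 and 1.33 CPM in G1C7 and 3.96, 4.14 and 24.0 CPM in G2C9, against 34.4, 38.6 and 33.1 CPM in Gcontrol. All libraries of the derivatives were below all of Gcontrol, and those that stood apart were the highest of their groups. The change in G1C7 was -3.43 ± 0.99, and -5.10 without both of these libraries. The call of Cd24a in G1C7 was lost without any 1 of 7 libraries, namely G1C7 replicates 1 and 3, G2C9 replicates 1 and 2 and the 3 Gcontrol replicates, and the gene was not called in G2C9.

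Against this background 22 members were called lower in at least 1 derivative, 8 in both, 7 in G1C7 only and 7 in G2C9 only. Lower calls made up 2.33% of members in each derivative. Over all genes tested they made up 8.73% in G1C7, 7.22% in G2C9 and 4.59% in both. The 22 members lay in all 9 windows, and their median level over the libraries was 3.95 CPM. It was 58.5 CPM for the 111 genes called higher in both and 32.2 CPM for all members. These levels include the libraries that define the calls, so the calls set them in part. Of the 8 low in both, 5 met the rule for named genes. Lrp11, a receptor-like membrane protein, had 5.16, 3.10 and 5.88 CPM in G1C7 and 5.01, 5.47 and 3.94 CPM in G2C9, against 17.6, 17.7 and 18.8 CPM in Gcontrol. Neither derivative overlapped with Gcontrol, with changes of -1.93 ± 0.24 and -1.91 ± 0.24, and its promoter window held 27 CG. Rgs17, which limits signalling through G proteins, had 19.9, 21.3 and 21.8 CPM in G1C7 and 16.6, 18.4 and 12.8 CPM in G2C9, against 33.9, 39.9 and 38.4 CPM in Gcontrol. Nr1h4, the bile acid receptor FXR, had 1.42 ± 0.0716 CPM in G1C7 and 1.51 ± 0.0979 CPM in G2C9, against 3.99 ± 0.305 CPM in Gcontrol. Ppp1r14c, an inhibitor of protein phosphatase 1, had 1.89, 0.983 and 1.83 CPM in G1C7 and 0.555, 0.429 and 0.547 CPM in G2C9, against 6.38, 6.26 and 5.86 CPM in Gcontrol. Bicc1, an RNA-binding regulator of translation, had 0.224, 0.0182 and 0.219 CPM in G1C7 and 0.832, 0.674 and 1.97 CPM in G2C9, against 12.7, 11.5 and 12.7 CPM in Gcontrol. These 5 genes remained called lower in both derivatives without any 1 of the 9 libraries.

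The other 3 genes low in both were named after their values were seen. Srgap1, which acts downstream of Slit and Robo, had 0 reads in the 3 G1C7 libraries together and 4 in G2C9, all of them in replicate 3, against 400 reads in Gcontrol. In G1C7 it was at least 65.9-fold lower, taking 6 reads over the group, or 3 read pairs, as the limit that a count of 0 allows. In G2C9 the ratio was 91.4-fold (95% counting interval 25 to 759.8). Lingo3, a leucine-rich repeat membrane protein, had 1 read in G1C7 and 8 in G2C9, against 240 in Gcontrol. Such intervals and limits cover counting error only. Cep83os, an antisense RNA, had 1.92 ± 0.437 CPM in G1C7 and 1.77 ± 0.412 CPM in G2C9, against 4.10 ± 0.478 CPM in Gcontrol. Reads were counted without regard to strand, so those of Cep83os and of the gene opposite it cannot be told apart. Its call in G1C7 was lost without G1C7 replicate 1 or 3 or any 1 Gcontrol replicate, and that in G2C9 without G2C9 replicate 1 or Gcontrol replicate 1 or 2, with changes between -1.35 and -0.96. The window from 0 to 15 Mb, which holds Lrp11, Ppp1r14c and Rgs17, also held 15 genes of 46 that were called higher in both derivatives.

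**Figure D4:**
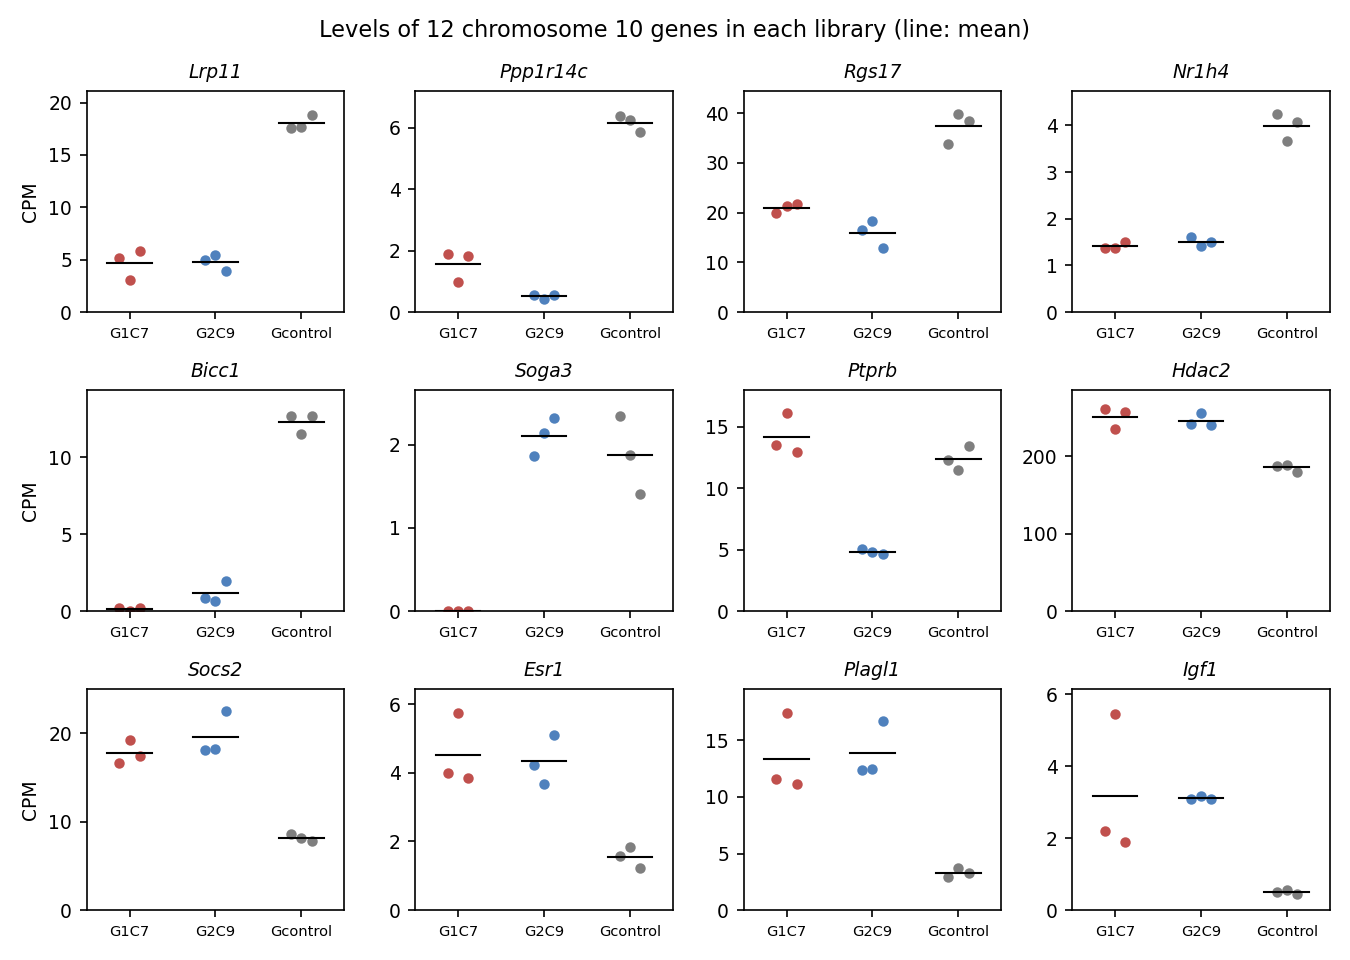
CPM (vertical axis, from 0) of 12 chromosome 10 genes in the 3 libraries of G1C7, G2C9 and Gcontrol (points, with the group mean as a line). Lrp11, Ppp1r14c, Rgs17, Nr1h4 and Bicc1 are lower in both derivatives, Soga3 is at 0 in G1C7, Ptprb is lower in G2C9, Hdac2 is moderately higher, and Socs2, Esr1, Plagl1 and Igf1 stand well above Gcontrol.

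Levels were then compared between G1C7 and G2C9, a contrast of their own libraries, in a fit whose estimate of the spread also uses Gcontrol. The chromosome was chosen as higher in both derivatives, which favours a median difference near 0, so nothing is read from that median. The median difference of the members, G1C7 against G2C9, was 0.00 relative to all genes, with an interquartile range from -0.13 to 0.14. Of the 643 members 10 were called higher and 5 lower in G1C7, and over all genes tested 1.71% and 1.65% were called, 3.36% in either direction. Without overlap, 42 of the 643 members were higher and 36 lower in G1C7. Over all genes tested the shares without overlap were 9.74% higher and 8.50% lower. The count of 15 changed with the libraries: without each of G1C7 replicates 1, 2 and 3 it was 7, 41 and 8, without G2C9 replicates 1, 2 and 3 it was 6, 5 and 16, and without Gcontrol replicates 1, 2 and 3 it was 7, 8 and 8. A fit on the 6 libraries compared called 2, Soga3 and Ptprb. With the 2 libraries that stood apart left out together it was 167, of which 91 were higher and 76 lower in G1C7, when 14.8% and 12.5% of all genes were called.

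The genes that differed between the derivatives included some that departed from the chromosome in 1 of them. Soga3 had 0 reads in the 3 G1C7 libraries together, against 318 in G2C9 and 309 in Gcontrol, so that it was at least 57.4-fold lower in G1C7 than in G2C9 (edgeR adjusted p = 0.000468). Its level in G2C9, 1.86, 2.14 and 2.32 CPM, overlapped with that in Gcontrol, 2.35, 1.88 and 1.41 CPM. Ptprb, a receptor tyrosine phosphatase known from endothelial cells, had 13.5, 16.1 and 12.9 CPM in G1C7, against 5.09, 4.82 and 4.61 CPM in G2C9, and Gcontrol had 12.3, 11.5 and 13.4 CPM. The difference between G1C7 and G2C9 was 1.55 ± 0.13 (edgeR adjusted p = 0.000631), with G2C9 as the low group. The endothelial markers Pecam1, Cdh5 and Tek summed to 1.26 to 1.46 CPM in G1C7 and 3.76 to 4.43 CPM in G2C9, against 0.847 to 1.11 CPM in Gcontrol. Most of that sum was Cdh5, with 3.29 to 3.78 CPM in G2C9, 0.856 to 1.27 CPM in G1C7 and 0.617 to 0.795 CPM in Gcontrol. Pecam1 had 0.158 to 0.801 CPM in G2C9 and overlapped with both other groups. Tek was at most 0.182 CPM, in G1C7. Cdh5 thus stood higher where Ptprb was low, and the part of these markers in the level of Ptprb was not tested. Tspan15, a tetraspanin that partners the protease ADAM10, had 33.1, 32.5 and 34.5 CPM in G1C7, against 16.7, 16.7 and 21.2 CPM in G2C9, and Gcontrol had 15.3, 14.8 and 14.7 CPM. Its difference was 0.87 ± 0.11 (edgeR adjusted p = 0.00464), here with G1C7 as the high group. Calls of these 3 genes between the derivatives held without any 1 of the 9 libraries, but that of Tspan15 was lost in a fit on the 6 libraries compared (edgeR adjusted p = 0.0603).

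Sobp, a nuclear zinc finger protein, had 5.35 ± 0.374 CPM in G1C7, against 1.89 ± 0.511 CPM in G2C9, with 4.91 ± 0.880 CPM in Gcontrol (SD, n = 3), and differed by 1.50 ± 0.24 (edgeR adjusted p = 0.0134, and 0.0534 without G2C9 replicate 1). Prdm1 had 0.917, 0.801 and 1.10 CPM in G1C7, against 0.436, 0.245 and 0.273 CPM in G2C9, and Gcontrol had 1.63, 2.24 and 1.50 CPM. The difference was 1.55 ± 0.31 (edgeR adjusted p = 0.0321). Bicc1, low in both derivatives, was lower in G1C7 than in G2C9 by 2.90 ± 0.64 on the log2 scale (edgeR adjusted p = 0.0465), and Ppp1r14c was lower in G2C9, with a difference of 1.61 ± 0.28 (edgeR adjusted p = 0.0182). Gstt4, a glutathione S-transferase, had 0.546 ± 0.111 CPM in G1C7, against 1.42 ± 0.369 CPM in G2C9, with 2.15 ± 0.373 CPM in Gcontrol. Uhrf1bp1l was higher in both derivatives to unequal degree. It had 134.2, 148.6 and 132.3 CPM in G1C7, against 186.6, 180.5 and 178.4 CPM in G2C9, and Gcontrol had 116.0, 115.8 and 114.8 CPM. The calls of Bicc1 and Gstt4 were lost without any 1 library but G1C7 replicate 2, with values between -3.26 and -2.28 and between -1.53 and -1.16. Those of Ppp1r14c and Uhrf1bp1l were lost without any 1 library but G1C7 replicate 2 or G2C9 replicate 3, with values between 1.46 and 1.86 and between -0.45 and -0.37. That of Prdm1 was lost without any 1 library but G1C7 replicate 2 or G2C9 replicate 1, with values between 1.39 and 1.85.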

How the data were processed

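Reads of 9 libraries of poly(A) RNA, 3 per group, were sequenced as stranded pairs, per the labels. The deposited files hold raw read counts for each gene; per the file headers they were counted with featureCounts 1.6.0 on GENCODE vM25, and the build is GRCm38. FastQC 0.11.8, STAR 2.6.1c, edgeR and limma are named in the submitters' processing notes. None of the 9 headers holds an option for pairs, strand or multi-mapping reads, so mates were counted separately and strand was ignored. Libraries held between 50110129 and 56035382 reads in genes. Symbols came from GENCODE vM21 for 55141 of 55401 IDs, and for every member.

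CPM were computed with TMM factors (0.978 to 1.03). Genes passing filterByExpr (15659, all 643 members among them) entered one edgeR 4.0.16 quasi-likelihood fit (R 4.3.3, robust, 6 residual degrees of freedom, common biological coefficient of variation 0.248) with Benjamini-Hochberg adjustment over all of them. Standard errors (SE) were obtained by dividing each absolute log2 change by the square root of its F value. Library medians used log2 of CPM plus 0.5. The procedure was tested on simulated counts. Alternatives were RLE factors, no filter, DESeq2 1.42.0, limma-voom (limma 3.58.1), a replicate block, fewer libraries, other level limits and other windows.

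Members, gene lists, marker lists and alternatives were chosen with earlier results of these data known. Named were per window the 2 most abundant protein-coding members, up to 8 members called in each direction in both derivatives, up to 5 in each direction between the derivatives, and per list up to 2 called members in each direction. Of the genes called in both or between the derivatives only protein-coding ones at 1 CPM or more without overlap were taken. The text names a selection, and names others (Srgap1, Lingo3, Cep83os, Ptprk, Cdk4, Mdm2 and the remaining genes of the closing part) after their values were seen.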

Additional observations from a re-analysis of the deposited data

Results flagged for a closer look

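For 15 members the change against Gcontrol differed between G1C7 and G2C9 by the test of the difference itself (edgeR quasi-likelihood, Benjamini-Hochberg over all genes), given here as log2 of G1C7 over G2C9. They are 1.56% of members called higher and 0.778% called lower in G1C7. Over all genes tested 3.36% were called in either direction, so such calls are not particular to this chromosome. Soga3, at 0 reads in G1C7, had -9.81, which the prior count of the fit sets in part. Bicc1 had -2.90 and -1.75 without both libraries that stood apart; its call was lost without any 1 library but G1C7 replicate 2, with values from -3.26 to -2.28. Smpdl3a had -2.73, with 0.135 ± 0.0224 CPM in G1C7, against 0.910 ± 0.432 CPM in G2C9 and 0.855 ± 0.0367 CPM in Gcontrol. Gstt4 had -1.37, and its call was lost likewise, with values from -1.53 to -1.16. Uhrf1bp1l had -0.39, Mex3d 0.38, Pawr 0.70 and Ppp1r14c 1.61; the calls of these 4 were lost without any 1 library but G1C7 replicate 2 or G2C9 replicate 3, and lay between -0.45 and -0.37, 0.34 and 0.42, 0.56 and 0.76, and 1.46 and 1.86. Prdm1 had 1.55, and its call was lost without any 1 library but G1C7 replicate 2 or G2C9 replicate 1, with values from 1.39 to 1.85.

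Dip2a had 0.54 and was lost without G1C7 replicate 1, G2C9 replicate 1 or 2 or Gcontrol replicate 1, with 0.46 to 0.59. Csrp2 had 0.65 and was lost without G2C9 replicate 2, with an adjusted p of 0.0518. This LIM domain gene had 113.0 ± 12.1 CPM in G1C7, against 72.2 ± 0.395 CPM in G2C9 and 108.5 ± 3.44 CPM in Gcontrol. Adamts14, a procollagen protease, had 0.76 and was lost without G2C9 replicate 1 or 2, with 0.62 to 0.84; it had 73.3 ± 12.5 CPM in G1C7, against 43.2 ± 0.816 CPM in G2C9 and 61.3 ± 6.39 CPM in Gcontrol. Sobp had 1.50, Ptprb 1.55 and Tspan15 0.87. In a fit on the 6 libraries compared only Soga3 and Ptprb were called. The calls of all others among the 15, Smpdl3a included, were lost there. Smpdl3a, Mex3d, Dip2a, Csrp2, Pawr and Adamts14 were named after their values were seen.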

How the results depend on the processing

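Medians of the members and of all 9 windows stayed above 0 under each of the alternatives, with the lowest window at 0.19 in G1C7 and 0.17 in G2C9 over 288 values from other fits. The chromosome was chosen for such medians, each fit was centred on its own median of all genes, and the fits share most libraries. These 288 values are thus not independent and do not test the shift. Of 238 values of the chromosome 191 stayed within 1.5 times the reported count or, for a median, within 1 SD over the libraries of the derivative, 47 moved further and 0 reversed. Members higher in G1C7 numbered 57 to 225 and in G2C9 48 to 236 without each library in turn, members lower 10 to 22 and 11 to 21, and members called between the derivatives 5 to 41. Medians without each library were 0.27 to 0.30 in G1C7 and 0.26 to 0.28 in G2C9, and the highest window of G2C9 had 0.42 to 0.46. The highest window of G1C7 had 0.37 to 0.42. Without both libraries that stood apart the counts were 380 higher and 65 lower in G1C7, 376 and 69 in G2C9 and 167 between the derivatives, and the median of G1C7 was 0.30. With no filter 80 were higher in G2C9. DESeq2 called 34 between the derivatives, and a fit on the 6 libraries compared called 2. Lower in G1C7 were 23 members at 0.2 CPM or more, where its median was 0.27, and 4 at 5 CPM or more, where 6 were lower in G2C9 and 8 called between the derivatives. The highest window of G2C9 had 0.46 at 1 or at 5 CPM and for protein-coding genes (0.457, 0.463 and 0.463), 0.53 with windows of 5 Mb, 0.36 with windows shifted by 7.5 Mb and 0.37 for the mean. That of G1C7 had 0.34 when shifted and 0.36 for the mean, and its lowest window 0.042 with windows of 5 Mb and 0.10 for the mean. Causes were not tested, beyond fewer genes or libraries where the alternative removes them.

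Same-numbered libraries did not deviate together throughout: the correlation of their deviations between G1C7 and G2C9 was 0.62, -0.68 and -0.72, and with Gcontrol about 0. Between G1C7 and G2C9 libraries of different number it ran from -0.72 to 0.78. The highest value was that of the 2 libraries that stood apart. With the replicate number as a block 83 members were higher in G1C7, 64 in G2C9 and 4 were called between the derivatives. Of 118 called results of single genes, 58 were called in every alternative and 60 without each library in turn, 43 were lost with the block, and 0 changed sign.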
